A study of Homo sapiens with 8 samples.

Results

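Of the 62528 accessible regions in the table, 2556 (4.09%) lay more than 100 kb from the start of the nearest transcript in the authors' annotation, and these are described here. A peak counted as a member when it did not touch that transcript and when its distance to the start, taken with the transcript's strand, was over 100 kb. No count entered this choice. ATAC-seq, which reads where a transposase can cut into open DNA, was run on JJN3 and KMS11, established lines from multiple myeloma, a cancer of plasma cells. Each line was kept for 48 h with the solvent DMSO, with 200 nM pomalidomide, with 40 nM GNE-781, or with both agents at these doses (the combination). There was 1 library for each line and treatment, 8 in all, and nothing in the labels says that treatments were repeated in separate cultures. No engineered allele is named for these cells, and cells carrying added BATF or eGFP, of which the design text speaks, are not analysed here.

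Enhancers are stretches of open chromatin, bound by transcription factors, that can act on a gene from far away along the chromosome, and insulator sites bound by CTCF are another common kind of distal open region. Gene deserts are long stretches without protein-coding genes, and some carry enhancers of developmental regulators. Pomalidomide leads cereblon to degrade the lymphoid factors IKZF1 and IKZF3, and GNE-781 blocks the bromodomain of the acetyltransferases EP300 and CREBBP, which work at enhancers. Every gene named with a peak is the nearest annotated gene, and whether the peak acts on it was not measured.

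Distance from the annotated start did not always mean distance from a gene. Some of these peaks sat on gene starts that RefSeq lists, as shown by 4 windows that run from 250 bases before to 50 bases after a RefSeq start (GRCh38.p14, sequence from RefSeq). KDM6B, which codes for a histone H3 demethylase, has its window at chr17:7833967-7834266 on the plus strand, inside a peak that the table assigns to DNAH2. LOC105372354 starts on the minus strand, with its window at chr19:30719645-30719944 inside a peak assigned to ZNF536. LOC105375049 lies on the plus strand, window chr6:40164436-40164735, most of it in a peak assigned to a transcript 111 kb away. LOC101929446 lies on the minus strand, window chr9:11834973-11835272, in a peak assigned to RP11-32D4.1. They are printed as examples that differ in base composition, 5′ to 3′ on the gene's strand, with each CG dinucleotide in capitals. Windows not printed went further, with 44 CG dinucleotides at CHRM4 and 0 at LOC124902370.
KDM6B: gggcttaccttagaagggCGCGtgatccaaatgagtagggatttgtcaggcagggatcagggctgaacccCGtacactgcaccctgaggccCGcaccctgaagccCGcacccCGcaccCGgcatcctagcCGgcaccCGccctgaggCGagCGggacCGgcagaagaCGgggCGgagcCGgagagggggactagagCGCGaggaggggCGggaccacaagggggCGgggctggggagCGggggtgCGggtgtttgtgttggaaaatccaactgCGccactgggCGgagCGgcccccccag
LOC105372354: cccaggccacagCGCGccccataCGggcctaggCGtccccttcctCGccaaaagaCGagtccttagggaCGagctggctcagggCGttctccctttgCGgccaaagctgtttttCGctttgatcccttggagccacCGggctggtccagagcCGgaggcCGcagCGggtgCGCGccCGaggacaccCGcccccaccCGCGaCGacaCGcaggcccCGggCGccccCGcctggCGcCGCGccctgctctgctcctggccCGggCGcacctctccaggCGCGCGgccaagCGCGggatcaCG
LOC105375049: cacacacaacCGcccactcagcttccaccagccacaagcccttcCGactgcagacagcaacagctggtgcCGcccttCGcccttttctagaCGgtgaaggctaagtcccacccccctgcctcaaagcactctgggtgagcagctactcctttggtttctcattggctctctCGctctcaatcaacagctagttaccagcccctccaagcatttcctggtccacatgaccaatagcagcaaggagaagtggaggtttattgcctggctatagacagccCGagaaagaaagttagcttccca
LOC101929446: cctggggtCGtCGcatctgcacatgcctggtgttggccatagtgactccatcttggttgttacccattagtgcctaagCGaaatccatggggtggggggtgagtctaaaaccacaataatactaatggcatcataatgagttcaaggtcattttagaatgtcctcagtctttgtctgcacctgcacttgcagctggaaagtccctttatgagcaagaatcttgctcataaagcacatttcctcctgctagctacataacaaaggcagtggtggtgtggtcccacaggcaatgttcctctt

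The windows of KDM6B and LOC105372354 held 24 and 36 CG dinucleotides, and those of LOC105375049 and LOC101929446 held 7 and 3. Across all 34943 RefSeq windows of this length the median was 14. In all, 19 member peaks overlapped 20 such windows, 2 of them alternative starts of LOC105373239, with a median of 3.5 CG dinucleotides. These counts are over the 2519 members tested below, of which 2362 lay on chromosomes with RefSeq windows, that is, all chromosomes of members but chromosome 8. Letters of known motifs, searched on both strands, were counted in these 20 windows. The AP-1 letters TGANTCA stood in 1 of 20 (7.72% of all windows), the ETS letters CCGGAAGT in 0 (4.11%), the Ikaros core TGGGAA in 2 (24.0%), the E-box CACGTG in 1 (7.23%) and the TATA letters TATAAA in 7 (11.6%), where 2 of the 7 are the overlapping windows of LOC105373239. The ETS and Ikaros letters share GGAA, and a match describes letters only. The KDM6B peak had 33.1, 39.7, 26.9 and 34.4 CPM in JJN3 (CPM are counts scaled for library depth, here and below in the order DMSO, pomalidomide, GNE-781 and combination). Its KMS11 values were 20.2, 16.1, 18.4 and 14.4 CPM, all below JJN3, at a log2 difference of -0.99 (edgeR adjusted p = 2.07e-06), just short of the 2-fold change a line call needed. At the LOC105372354 peak the KMS11 libraries had 13.5, 20.6, 19.4 and 20.7 CPM against 11.3, 2.999, 4.49 and 4.36 CPM in JJN3, a log2 difference of 1.84 (edgeR adjusted p = 8.2e-08) without overlap of the lines. The LOC105375049 peak was lower in KMS11, by -2.44 on the log2 scale (edgeR adjusted p = 1.52e-09).

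The name gene desert held for part of the set. Of the 2556 peaks, 1915 lay past the far end of the nearest transcript and 641 before its start. The gap to the transcript itself was over 100 kb for 1361 peaks, while 1195 lay within 100 kb of its far end and 363 of these within 10 kb, past the end of a long gene. RefSeq starts were known for genes with a strand, and for 32374 of 59679 genes without one in the tables used both ends were counted as starts. By this measure 841 members were over 100 kb from any start and 87 were within 1 kb of one. By RefSeq, 469 (18.3%) overlapped a gene, 68 of them a protein-coding gene. The median distance to the annotated start was 165770.5 bp, with 1600 peaks at 100 to 200 kb, 827 at 200 to 500 kb, 112 at 500 to 1000 kb and 17 beyond. The last members inside the limit lay 100012 bp from RP11-147G16.1 and 100042 bp from CAB39L, and the first outside lay 99979 bp from STK39 and 99956 bp from RP11-525A16.4. The farthest, chr1:125114368-125114538, was 3533844 bp from the start of RP11-344P13.1, beside the centromere.

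**Figure D1:**
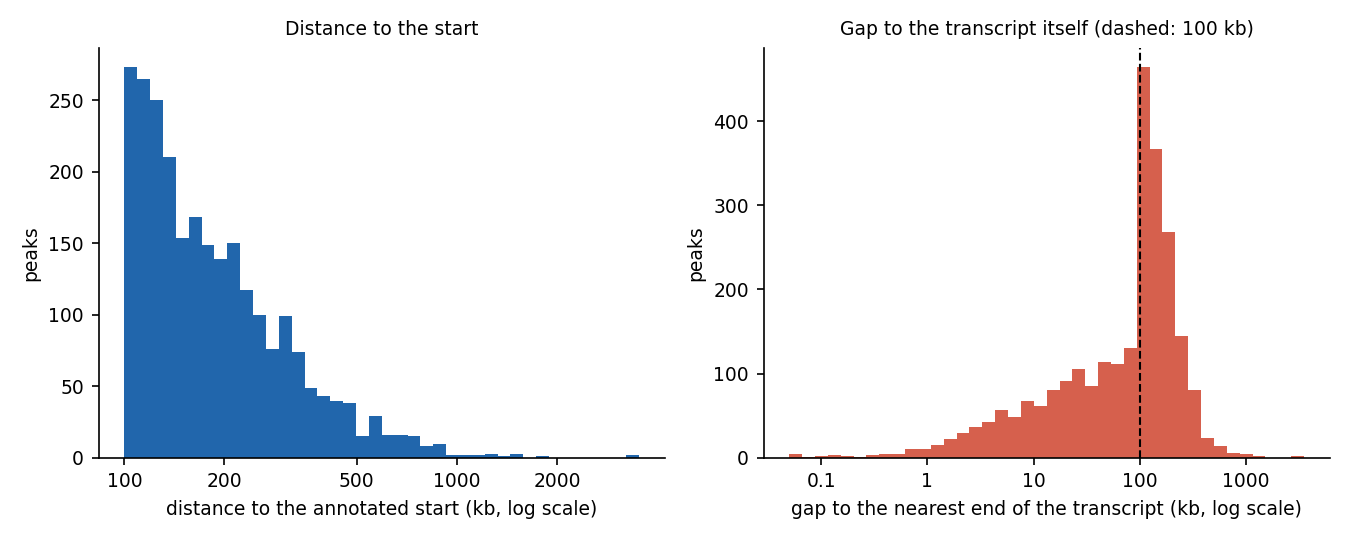
Number of member peaks by distance to the annotated transcript start (left) and by gap to the transcript's nearest end (right), both in kb on log axes, with gaps under the left edge drawn at the edge. The gaps pile up just above 100 kb, with a long tail of 1195 peaks at smaller gaps.

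The nearest gene was protein-coding for 1045 members (40.9%, against 64.3% of all peaks) and a pseudogene for 320 (12.5%, against 5.62%), while the nearest genes of 967 members had no RefSeq match. Chromosome 4 held 312 members, 8.08% of its peaks, chromosome 18 held 7.79% and chromosome 13 held 6.75%, against 0.467% for the gene-dense chromosome 19. The members had a median width of 370 bp, the same as intergenic peaks 10 to 100 kb away. Promoter peaks (within 1 kb of the annotated start) had 730 bp and all peaks 431 bp. At a median of 6.29 CPM the members were weak, against 24.0 CPM for promoter peaks and 7.15 CPM for those intergenic peaks. The members formed 1866 runs with steps of at most 20 kb, of which 1394 held a lone peak and 16 held 5 peaks or more.

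The strongest member lay at chr10:128464359-128464721, 144 kb from the nearest annotated start. It had 119.5, 74.0, 114 and 78.5 CPM in JJN3 and 78.7, 83.2, 102 and 67.1 CPM in KMS11, and passed neither the line test nor a drug test. A peak 51.2 kb past the end of RALGPS2, an exchange factor for Ral GTPases, followed with 123, 142, 94.9 and 74.2 CPM in JJN3 and 70.9, 78.7, 43.3 and 49.1 CPM in KMS11. It fell under the combination, by 0.62 ± 0.18 (SE) on the log2 scale, with the lowest JJN3 value under both agents (edgeR adjusted p = 0.027). Whether this call held with single libraries left out is not given here.

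The libraries held 1366628 to 3218581 counts in JJN3 and 2981408 to 5435673 in KMS11, so the depth moves with the line. A typical (median) member had 7 counts in the shallowest library, JJN3 with DMSO, and 36 in the deepest, KMS11 under the combination. In each library 2.19% to 2.42% of the counts fell in members. Wilson 95% intervals of this share were no wider than that of the JJN3 DMSO library, 2.23% to 2.27%. They cover counting error only, since PCR copies are not independent. The share was 2.27% ± 0.0615 in JJN3 and 2.35% ± 0.0842 in KMS11 (SD, n = 4 each), a difference of 0.0804 percentage points (two-sided exact permutation test, p = 0.171, smallest possible 0.0286). The 4 libraries of a line are 4 treatments, so the SD includes drug differences, and the test does not pair libraries by treatment. The share was higher in JJN3 under GNE-781 alone (2.32% against 2.23%) and higher in KMS11 in the other treatments. With promoter peaks out of the denominator the shares were 4.41% and 4.69%, and every KMS11 library lay above every JJN3 library (exact permutation p = 0.0286, the smallest possible). Promoter peaks were found for 8 of 9 plasma cell markers (not TNFRSF17), 0 of 5 myeloid markers, 1 of 6 T and NK cell markers, 2 of 5 B cell markers, 1 of 4 erythroid markers and 4 of 7 stromal and epithelial markers. Values below are log2 changes ± SE from edgeR's quasi-likelihood test over all libraries, and a call is an adjusted p under 0.05 over the 62234 peaks tested. Of the members 2519 were tested, and 37 were under the filter of a mean of 2 CPM.

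Pomalidomide raised 34 and lowered 10 distant peaks against DMSO. That is 1.75% of the members tested, where 1.25% of all peaks were called, 1.03% as rises and 0.228% as falls. Promoter peaks were called at 0.490% and peaks inside genes at 1.49%. Intergenic peaks 1 to 10 kb away were called at 1.64% and those 10 to 100 kb away at 1.45%, so the members lay near the other distal classes. Called changes had the same sign in both lines at 42 of 44 members and 758 of 780 peaks in all, from a model that fits 1 change over both lines. The median change over the members was -0.02 and over all peaks 0.02. Most of the 44 calls were lost without the KMS11 DMSO library and without the KMS11 pomalidomide library. DESeq2 called 6 members, where it called 0.116% of all peaks.

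A peak 42.8 kb past LINC01031, chr1:193408793-193409292, had 6.01 CPM under DMSO and 30.0 under pomalidomide in JJN3, and 4.66 and 15.4 CPM in KMS11. Its GNE-781 values were 10.9 and 7.11 CPM and its combination values 27.2 and 20.7 CPM, so both lines were high in both libraries with pomalidomide. It rose by 1.99 ± 0.34 (edgeR adjusted p = 0.000234). Of the 21 named pomalidomide calls it was the 1 that stayed called under each alternative that gave an outcome. Far upstream of LCORL, a gene tied to body size, the peak chr4:18241608-18242258 had 3.76 CPM under DMSO and 12.7 under pomalidomide in JJN3, and 3.11 and 19.5 CPM in KMS11. It rose 5.08-fold, by 2.34 ± 0.40 (edgeR adjusted p = 0.000221), a call lost without either KMS11 library of the contrast.

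The peak 60.2 kb past PHLPP1, which codes for a phosphatase acting on AKT, had 61.6 and 138 CPM under DMSO and pomalidomide in JJN3 and 29.0 and 59.8 CPM in KMS11. It rose by 1.09 ± 0.19 (edgeR adjusted p = 0.000345), by 1.16 in JJN3 and 1.03 in KMS11, so the lines differed in level and moved by similar amounts. A shared direction was a condition for naming peaks of lowest p. The call of the PHLPP1 peak was lost without the JJN3 DMSO or the KMS11 pomalidomide library. A peak 0.047 kb past the end of NSD1, a methyltransferase of histone H3, rose by 1.37 ± 0.27 (edgeR adjusted p = 0.00211), from 14.3 to 54.7 CPM in JJN3 and from 9.06 to 17.4 CPM in KMS11. It passes the distance limit by the length of NSD1, and without the KMS11 pomalidomide library, or without either JJN3 library of the contrast, its call was lost. Other rises among the 10 of lowest p lay near AC074290.1, MIR466, VLDLR-AS1, TPRG1 and BTC and at chr6:48535517-48536057, at 1.25 to 2.33 on the log2 scale, and each of these 6 calls was lost without KMS11 DMSO and without KMS11 pomalidomide.

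Among the falls, the peak chr1:187032333-187033342 past PLA2G4A, which codes for the phospholipase that frees arachidonic acid, had 24.8 and 8.33 CPM under DMSO and pomalidomide in JJN3 and 61.1 and 24.7 CPM in KMS11. It fell by 1.39 ± 0.24 (edgeR adjusted p = 0.000338), with GNE-781 values of 15.4 and 24.6 CPM, and was not called without the KMS11 DMSO library. A peak 215 kb from ZWINT, which codes for a kinetochore protein, fell by 1.65 ± 0.37 (edgeR adjusted p = 0.00858), from 20.3 to 8.33 CPM in JJN3 and from 10.4 to 2.36 CPM in KMS11. Past EPHA5, a receptor of ephrins, a peak fell by 1.44 ± 0.37 (edgeR adjusted p = 0.0282). Calls of both the ZWINT and the EPHA5 peak were lost without the KMS11 DMSO library and without the KMS11 pomalidomide library, and that of EPHA5 also without either JJN3 library of the contrast. The fewest counts among the named falls lay 133 kb from LINC00351, where 1 JJN3 count and 3 KMS11 counts under pomalidomide stood against 6 and 19 under DMSO (change -3.10 ± 0.80, edgeR adjusted p = 0.0296), a call lost without any 1 of those 4 libraries.

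**Figure D2:**
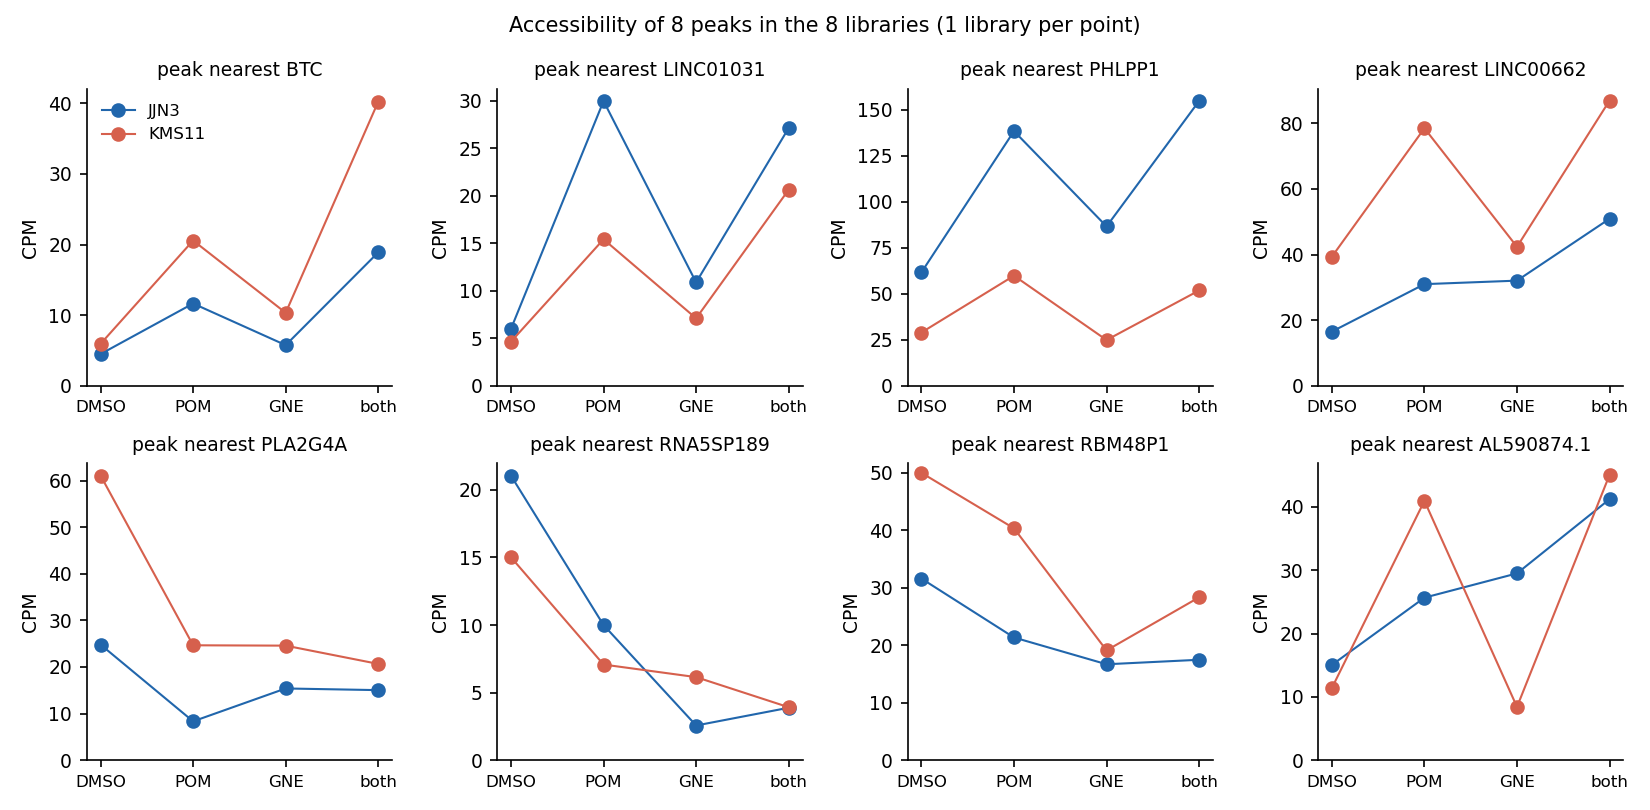
Accessibility (CPM) of 8 member peaks under DMSO, pomalidomide (POM), GNE-781 (GNE) and the combination (both), with 1 library per point and 1 colour per line, without error bars because no treatment was repeated within a line. The LINC01031 and PHLPP1 peaks are high in the 4 libraries that received pomalidomide, and the RBM48P1 peak is lowest under GNE-781 in both lines.

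GNE-781 alone changed 1 member by the edgeR test, where 0.0209% of all peaks were called. The peak chr4:126741831-126742582, 178 kb from the start of the pseudogene RBM48P1, had 31.6, 21.3, 16.7 and 17.5 CPM in JJN3 and 49.95, 40.3, 19.1 and 28.3 CPM in KMS11. Both GNE-781 values were the lowest of their line. It fell by 1.22 ± 0.25 against DMSO (edgeR adjusted p = 0.0362). DESeq2 called 0 members, and the edgeR call was lost without KMS11 DMSO, KMS11 GNE-781, KMS11 pomalidomide, or either combination library. At an unadjusted p under 0.05 there were 203 members, 69 higher and 134 lower under GNE-781. That is 8.06% of the members, where 6.58% of all peaks passed, 1495 higher and 2601 lower.

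Under the combination 66 distant peaks rose and 75 fell against DMSO. These are 5.60% of the members, where 4.79% of all peaks were called, 2.11% as rises and 2.67% as falls. Both lines moved the same way at 135 of 141 called members and at 2888 of 2979 called peaks in all. The median change was 0.04 over the members and 6.3e-05 over all peaks. Promoter peaks were called at 1.69%, peaks inside genes at 5.98% and intergenic peaks 10 to 100 kb away at 5.84%, so the members lay near the other distal classes. Most of the 141 calls were lost without the KMS11 combination library and without KMS11 DMSO. Fewer members were also called without the JJN3 combination library. DESeq2 called 19 members, where it called 0.633% of all peaks.

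Rises were led by a peak 61.5 kb past BTC, which codes for betacellulin, a ligand of the EGF receptor. At chr4:74682600-74683231 JJN3 had 4.51, 11.7, 5.77 and 18.9 CPM and KMS11 had 5.95, 20.6, 10.3 and 40.2 CPM, highest under the combination in both lines. It rose by 2.57 ± 0.33, 5.93-fold (edgeR adjusted p = 5.45e-07), and stayed called under each alternative that gave an outcome. The peak chr6:48535517-48536057, 166 kb from the nearest annotated start, began from 2 counts in JJN3 DMSO and 10 in KMS11 DMSO and reached 22 and 148 counts, a rise of 3.27 ± 0.43 that was not called without the KMS11 DMSO library.

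A peak 11.3 kb past LINC00662, a long noncoding RNA, rose by 1.29 ± 0.21, from 16.5 to 50.9 CPM in JJN3 and from 39.3 to 86.9 CPM in KMS11. It was called in all alternatives that gave an outcome. The same held for the peaks near LINC01031 (2.13 ± 0.33), MIR466 (2.28 ± 0.35), MTND5P17 (2.88 ± 0.46) and PHLPP1 (1.07 ± 0.19). Near the snoRNA gene U3, chr1:218705994-218706774 had 1.503, 4.999, 3.21 and 5.33 CPM in JJN3 and 4.66, 8.79, 5.50 and 35.3 CPM in KMS11. The last KMS11 value stands above the other 7 libraries, and the rise of 2.67 ± 0.41 was not called without it or without KMS11 DMSO.

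Among the falls the lowest p belonged to chr5:106127296-106127915, 204 kb from RNA5SP189, with 21.0, 9.997, 2.56 and 3.88 CPM in JJN3 and 15.0, 7.07, 6.14 and 3.92 CPM in KMS11. All 6 drug-treated libraries were below both DMSO libraries. It fell by 2.12 ± 0.38 (edgeR adjusted p = 0.000193), a call lost without the KMS11 combination library. A peak 1.44 kb past OSBPL6, a sterol-binding protein gene, fell by 1.36 ± 0.28, from 31.6 to 15.5 CPM in JJN3 and from 24.6 to 8.19 CPM in KMS11. The PLA2G4A peak fell by 1.30 ± 0.25 and a peak past GBA3, which codes for a cytosolic glucosidase, fell by 1.69 ± 0.34. Those 3 calls were lost without the KMS11 DMSO library and without the KMS11 combination library.

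Past the end of RUNX2, a Runt transcription factor of bone, 8 tested members stretched from 13.2 to 77.1 kb beyond the gene, 349 to 413 kb from its start. Under the combination 2 of them rose and 2 fell. The peak chr6:45681828-45682426, nearest but 1 to the gene, had 50.4, 37.99, 36.5 and 18.9 CPM in JJN3 and 33.4, 13.7, 24.3 and 15.7 CPM in KMS11, and fell by 1.21 ± 0.24 (edgeR adjusted p = 0.00085). The outermost, chr6:45741428-45742254, had 24.1, 60.3, 38.5 and 62.5 CPM in JJN3 and 8.54, 14.8, 7.44 and 13.7 CPM in KMS11, highest in the libraries with pomalidomide, and rose by 1.04 ± 0.26 (edgeR adjusted p = 0.0082). It also rose under pomalidomide alone, by 1.06 ± 0.26, a call lost without any 1 of the 4 libraries compared. The peak chr6:45704313-45704775 rose by 1.35 ± 0.41, by 2.13 in JJN3 and 0.63 in KMS11, and chr6:45709937-45711060 fell by 0.69 ± 0.21. Without the JJN3 combination library none of the 4 was called for the combination.

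**Figure D3:**
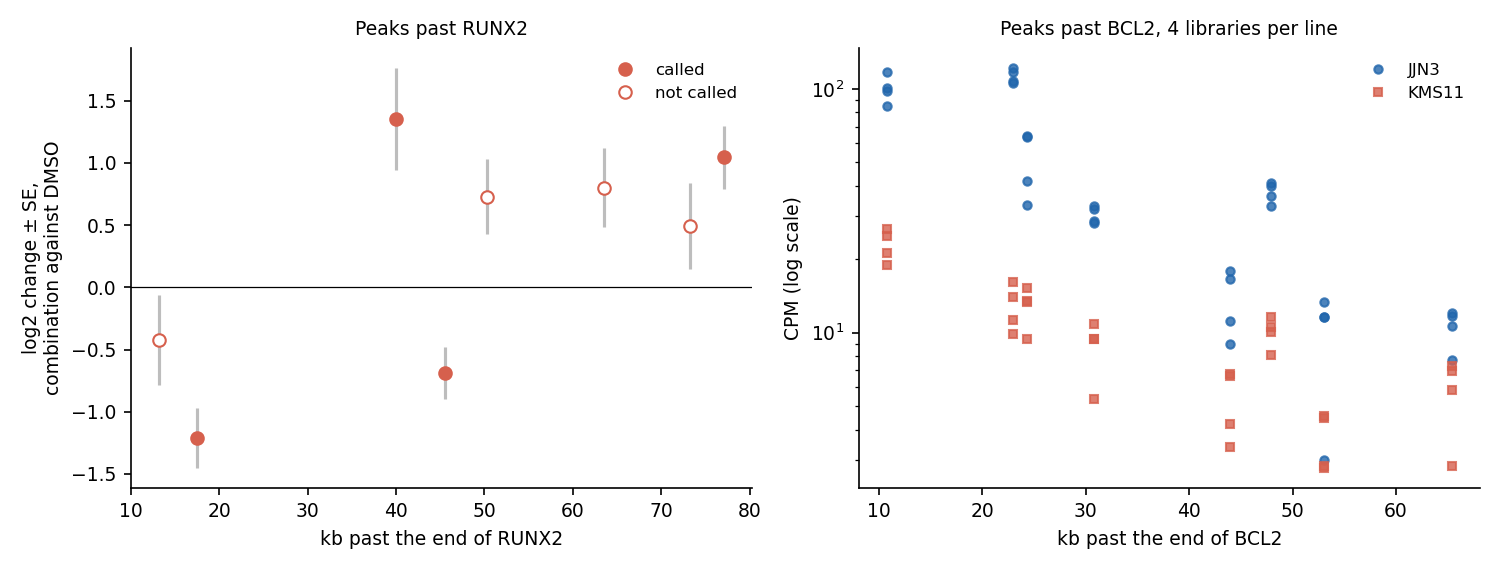
Left, log2 change ± SE under the combination against DMSO at the 8 members past RUNX2, by kb past its end, filled where called. Right, CPM (log axis) of the 8 members past BCL2 in the 4 libraries of each line, where 7 peaks are called higher in JJN3.

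Of the gene lists, plasma cell and myeloma regulators had 20 tested members at 5 genes. Under the combination 4 rose and 2 fell, all at RUNX2 and IKZF3, with a list median of -0.08. Of all peaks tested, 2.11% rose and 2.67% fell under the combination. At IKZF3, the gene of the pomalidomide target Aiolos, a peak 1.21 kb past the gene's end went from 18.8 to 55.8 CPM in JJN3 and from 37.8 to 53.6 CPM in KMS11, a rise of 0.91 ± 0.23 (edgeR adjusted p = 0.0085). Its neighbour 2.84 kb past the end rose by 0.67 ± 0.20 (edgeR adjusted p = 0.0364), and both calls were lost without either DMSO library and without the JJN3 combination library. Among 31 members at developmental transcription factor genes 3 rose and 3 fell (median 0.25), at RUNX2, NFIA and ETS1. The RUNX2 members are those of the myeloma list, counted again. The ETS1 peak, 52.1 kb past this lymphoid factor's gene, had 42.8, 35.7, 30.8 and 20.4 CPM in JJN3 and 21.5, 13.1, 11.3 and 10.9 CPM in KMS11 and fell by 1.02 ± 0.26 (edgeR adjusted p = 0.00925). It was the only call among 5 members at B cell identity genes (median -0.66), and it was lost without KMS11 DMSO and without either combination library. Of 43 members at genes of neuronal adhesion and synapses 1 fell, past NTM, by 0.85 ± 0.21 (list median 0.05), a call lost without KMS11 DMSO and without either combination library. None of 12 members at signalling ligand genes, 2 at NF-kB and interferon genes and 1 at AP-1 genes was called by edgeR for the combination, with medians of 0.13, -0.13 and 0.25.

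Against GNE-781 alone, the combination raised 39 distant peaks and lowered 2, 1.63% of the members. Of all peaks 1.09% were called, 0.999% as rises and 0.0948% as falls. Promoter peaks were called at 0.384%, peaks inside genes at 1.29%, and intergenic peaks 1 to 10 kb and 10 to 100 kb away at 1.45% and 1.35%. DESeq2 called 7 members, where it called 0.148% of all peaks. This comparison shares its combination libraries with the one against DMSO. The BTC peak was higher than under GNE-781 by 1.87 ± 0.31 (edgeR adjusted p = 0.000113). A peak assigned to POLR1A, the gene of the largest subunit of RNA polymerase I, lay 368 bp from a RefSeq start and had 9.77, 19.99, 5.13 and 21.3 CPM in JJN3 and 9.84, 19.5, 5.50 and 19.9 CPM in KMS11. The lines nearly coincided, with both GNE-781 values lowest, and it rose by 1.93 ± 0.34 over GNE-781 (edgeR adjusted p = 0.000398). A peak past CNIH3, which codes for an auxiliary protein of glutamate receptors, rose by 1.25 ± 0.24, and a peak past TGFB2, a growth factor gene, rose by 1.52 ± 0.40. The falls lay near RNU6-695P (-1.85 ± 0.48) and AC016682.1 (-1.11 ± 0.29). The calls at BTC, POLR1A and CNIH3 were lost without the KMS11 GNE-781 and without the KMS11 combination library, and those at TGFB2, RNU6-695P and AC016682.1 without any 1 of the 4 libraries compared. Leaving out the KMS11 GNE-781 library left 1 member called and leaving out the KMS11 combination library left 3. Against pomalidomide alone the combination had 0 calls among the members by edgeR and 0 by DESeq2, where edgeR called 0.0112% of all peaks, 0.00161% as rises and 0.00964% as falls, and 198 members (7.86%) had an unadjusted p under 0.05, where 7.40% of all peaks did.

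The share of peaks called for a drug was higher at higher levels. From the lowest to the highest quartile of mean CPM, the combination was called at 1.996%, 5.099%, 9.53% and 14.2% of the members, against 2.75%, 4.73%, 7.73% and 11.9% of the other peaks outside promoters. For pomalidomide these shares were 0.475%, 2.12%, 2.72% and 4.05% against 0.487%, 1.17%, 2.105% and 3.39%. The lowest quartile held 41.8% of the members and the highest 9.81%.

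**Figure D4:**
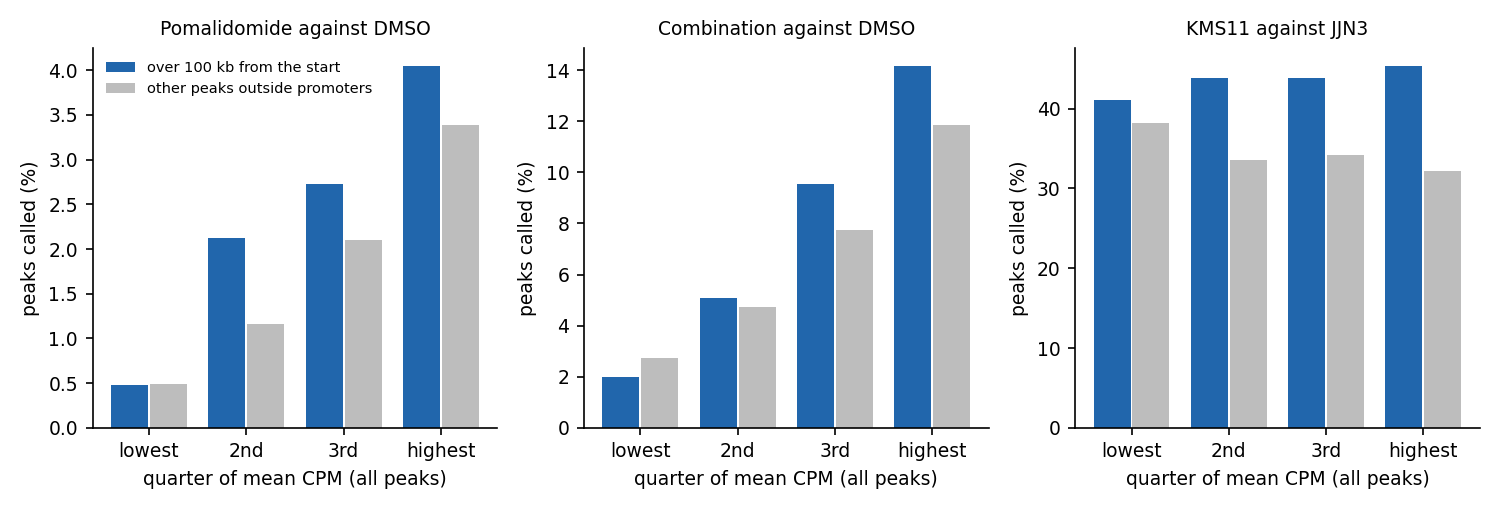
Percent of peaks called in each quartile of mean CPM for members and for other peaks outside promoters, in 3 comparisons. Drug calls rise with the level in both sets, and members are called between the lines at 41.1% to 45.3% in every quartile. The other peaks are called between the lines at 32.1% to 38.2%, most often in the lowest quartile.

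Between the lines 628 members were higher in KMS11 and 450 higher in JJN3 (edgeR adjusted p under 0.05 and at least 2-fold). That is 42.8% of the members, where 31.9% of all peaks were called, with 24.9% against 15.8% for peaks higher in KMS11 and 17.9% against 16.1% for peaks higher in JJN3. Promoter peaks were called at 21.7% and intergenic peaks 10 to 100 kb away at 36.3%. The median difference was 0.29 over the members and 0.08 over all peaks. From the lowest to the highest quartile of mean CPM, members were called at 41.1%, 43.8%, 43.8% and 45.3%. Other peaks outside promoters were called at 38.2%, 33.6%, 34.2% and 32.1%, so the gap was smallest in the lowest quartile, which held the most members. DESeq2 called 28.7% of all peaks and 934 members. CPM ranges of the lines did not overlap at 43.3% of the members and 42.3% of all peaks. Members over 100 kb from the whole transcript were called at 46.4%, 400 higher in KMS11 and 219 in JJN3, and those closer to its far end at 38.7%, 228 and 231. KMS11 libraries were also deeper. The summed promoter signal of the markers found was 299 to 336 CPM in JJN3 and 240 to 276 CPM in KMS11 for plasma cells, 11.2 to 21.5 and 43.6 to 57.8 CPM for B cells, 18.3 to 27.7 and 43.8 to 50.6 CPM for T and NK cells and 53.1 to 67.0 and 57.8 to 81.1 CPM for stromal and epithelial cells. The T and NK signal came from CD8A, with no promoter peak at CD3E, CD3D, CD2, NKG7 or KLRD1, and the B cell signal came from PAX5 and CR2. The part of depth and of these markers in the line difference was not tested.

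The member that differed with the lowest p among those higher in KMS11 was chr4:179636526-179637302, 171 kb from RP11-404J23.1. JJN3 had 0.752, 3.999, 0.641 and 1.94 CPM and KMS11 had 71.7, 61.3, 70.5 and 63.2 CPM, a difference of 4.86 ± 0.25 on the log2 scale (edgeR adjusted p = 5.4e-26). A peak past RNF150, a RING finger gene, had 6.01 to 9.62 CPM in JJN3 and 60.8 to 94.99 CPM in KMS11 (3.09 ± 0.19). Past NCAM2, a neural adhesion gene, a peak had 2.25 to 4.36 CPM in JJN3 and 19.4 to 37.6 CPM in KMS11 (3.12 ± 0.26). In the other direction, chr5:30690851-30691254, 325 kb from RP11-136H13.2, had 21.0, 41.7, 18.6 and 33.5 CPM in JJN3 and 0.776, 0.858, 0.647 and 1.07 CPM in KMS11 (-5.05 ± 0.30). Peaks named for the lowest p also had to have lines that do not overlap in CPM. Their separation in every treatment was set by that choice.

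The gene BCL2, whose product holds back apoptosis, had 8 members 10.8 to 65.4 kb past its end, and 7 were called higher in JJN3. At chr18:63099726-63100376 JJN3 had 117, 122, 105 and 107 CPM and KMS11 had 14.0, 9.86, 16.2 and 11.2 CPM, a difference of -3.17 ± 0.15. Summed over the 8 peaks the signal was 337 to 380 CPM in JJN3 and 73.5 to 86.4 CPM in KMS11. Together with 4 peaks assigned to PHLPP1 they made the longest run, 12 peaks over 96.3 kb, of which 11 were higher in JJN3 and 1, the PHLPP1 peak described above, also rose under pomalidomide. Past TG, the thyroglobulin gene, 4 members were higher in JJN3. At the strongest, with a difference of -4.32 ± 0.18, JJN3 had 102, 123, 97.5 and 84.4 CPM and KMS11 7.51, 4.72, 6.14 and 2.85 CPM. At CDH19, a cadherin gene, 6 of 9 members were higher in JJN3, with a median difference of -1.48. BCL2, PHLPP1 and CDH19 lie on chromosome 18, where 46 of 132 members were higher in JJN3 and 22 in KMS11. All peaks of chromosome 18 had a median difference of -0.44, and 42.8% of them were called between the lines. All peaks of chromosome 8, which holds TG, had a median of -0.61, and 42.1% were called. The gene with the most members, CFTRP3 on chromosome 20, had 24, of which 7 were higher in JJN3 and 1 in KMS11. Of 10 tested members near AC026202.5, 5 were higher in JJN3 and 1 in KMS11, and of 9 near UTRN 2 and 1. Over all chromosomes, 16.1% of all peaks tested were called higher in JJN3 and 15.8% in KMS11.

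On chromosome X 88 of 112 members were higher in KMS11 and 2 in JJN3, with a median difference of 1.85, where all peaks of this chromosome had 0.98 and 50.7% of them were called. The 18 members near the pseudogene KRT8P17, beside the centromere, summed to 33.0 to 43.6 CPM in JJN3 and 96.4 to 224 CPM in KMS11, and 17 were called. On chromosome 8 the members went the other way, 69 higher in JJN3 and 13 in KMS11 (median -0.81, all peaks -0.61), 52.2% of them where 42.1% of all peaks of this chromosome were called. On chromosome 4 members were higher in KMS11 at 120 and in JJN3 at 22 (median 0.81, all peaks 0.70), 46.6% of them where 39.7% of all its peaks were called. With scaling done within each chromosome 934 of 2519 members were called, 535 higher in KMS11 and 399 in JJN3, where 28.2% of all peaks were called. Without chromosome X, an alternative chosen after seeing the data, there were 988, 540 and 448, and no share over all autosomal peaks was computed.

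**Figure D5:**
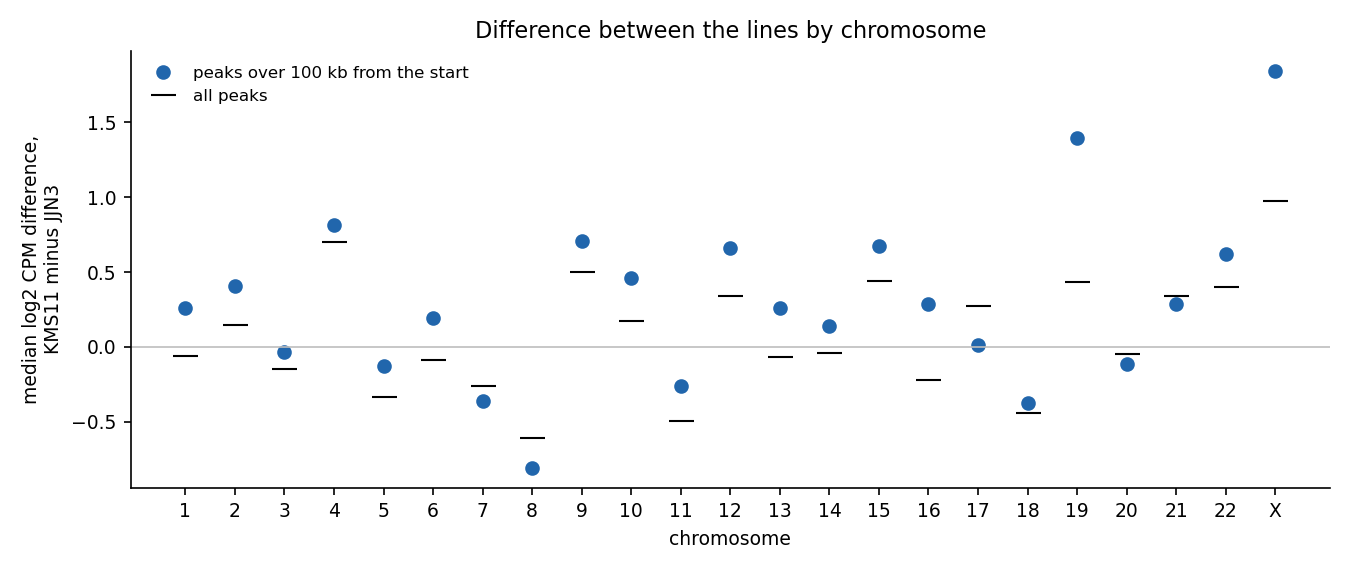
Median log2 CPM difference between the lines (KMS11 minus JJN3) by chromosome for members (points) and all peaks (dashes). Members of chromosome X stand highest at 1.85, and members of chromosome 8 lowest at -0.81.

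Among 31 members at the 15 developmental factor genes, 5 were higher in KMS11 and 10 in JJN3. Of all peaks tested, 15.8% were called higher in KMS11 and 16.1% in JJN3. The lists share genes, since RUNX2, ETS1 and BCL11A each stand in the developmental list and in another list, so the counts per list are not separate. A peak near ESRRG, an orphan nuclear receptor gene, was higher in KMS11 (2.93 ± 0.36), and a peak past ZEB2, a repressor of epithelial genes, was higher in JJN3 (-2.44 ± 0.36). Of 43 members at neuronal adhesion genes 11 were higher in KMS11 and 12 in JJN3. Of 20 members at myeloma regulators 0 were higher in KMS11 and 11 in JJN3, at BCL2 and RUNX2. Among ligand genes, both members at BMP2 were higher in JJN3 (-2.09 ± 0.25 and -1.24 ± 0.27), and a peak near IL15, an interleukin gene, was higher in KMS11 (1.81 ± 0.31). B cell identity genes had 1 member higher in KMS11, at LEF1 (1.99 ± 0.29), and 4 in JJN3, at ETS1 and BCL11A.

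A drug effect that differed between the lines was found at 3 members. On simulated counts the test for pomalidomide found 4% of 2-fold and 46% of 4-fold differences. Few calls therefore do not show that the lines respond alike. For pomalidomide the test of this difference called 2 members, where 0.0675% of all peaks were called, 0.0482% with the more positive change in KMS11 and 0.0193% with the more positive change in JJN3. The peak near AL590874.1 had 15.0, 25.7, 29.5 and 41.2 CPM in JJN3 and 11.4, 40.9, 8.41 and 45.1 CPM in KMS11, so KMS11 was high only in its 2 libraries with pomalidomide, while JJN3 was also above DMSO under GNE-781. The change was more positive in KMS11 by 1.504 ± 0.34 (edgeR adjusted p = 0.035). At RP11-2P2.1 JJN3 had 8.27, 3.999, 8.98 and 6.79 CPM and KMS11 had 6.73, 30.9, 6.47 and 15.7 CPM, a difference of 2.49 ± 0.52 (edgeR adjusted p = 0.0265). For GNE-781 1 member was called, where 0.00964% of all peaks were called. That member, near AC093901.1, had 11.3, 1.67, 16.03 and 11.2 CPM in JJN3 and 9.84, 9.86, 2.91 and 4.45 CPM in KMS11 (-2.75 ± 0.54, edgeR adjusted p = 0.0304). The test takes GNE-781 with and without pomalidomide together, so the low JJN3 pomalidomide library (1.67 CPM) enters the JJN3 rise. In JJN3 the combination value was close to that of DMSO.

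Counts were also summed over all members of 1 nearest gene and set beside the sum of that gene's other peaks. Of 1402 distant sums tested, 11 rose and 7 fell under pomalidomide, 1.28% of them. Of all 26323 sums 0.52% were called, 0.384% as rises and 0.137% as falls. Under the combination 34 distant sums rose and 34 fell, 4.85% of them. Of all sums 3.44% were called, 1.43% as rises and 2.01% as falls. For GNE-781 0 distant sums were called by edgeR or DESeq2 (124 at an unadjusted p under 0.05). Of the 68 called under the combination 59 had other peaks at the same gene, and for 2 of them the other peaks were called in the same direction, for 0 in the opposite and for 57 not at all. At BTC the distant sum rose by 1.82 ± 0.26 and the other peaks changed by 0.06 ± 0.16 (edgeR adjusted p = 0.916). Between the lines 534 distant sums were called, 38.1% of them, 321 higher in KMS11 and 213 in JJN3. Of all sums 23.8% were called, 11.3% higher in KMS11 and 12.6% in JJN3. Of 440 called distant sums with other peaks at the gene, these were called the same way at 179, the opposite way at 20 and not at all at 241. BCL2 was lower in KMS11 in both (-2.21 ± 0.09 and -1.70 ± 0.08), and RP11-114H7.1 was 1 of the 20, with its distant peak higher in KMS11 (3.48 ± 0.23) and its other peaks higher in JJN3 (-4.16 ± 0.28). Without the KMS11 combination library 8 distant sums were called for the combination, and without KMS11 DMSO 1 for pomalidomide.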

How the data were processed

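ATAC-seq reads of 8 libraries were turned by the authors into 1 deposited table of raw counts per peak and library, over 62528 peaks with their nearest transcript, in GRCh38. Per the submitters' processing notes the work used MACS2 2.1.1.20160309, Bowtie2 2.3.5.1, R 4.1.2, SAMtools 1.10, and for trimming cutadapt 2.5 with Trim Galore 0.6.4. For duplicates, the transposase offset, mitochondrial reads and the merging of peaks, the handling is not given in the sources used here. One shared peak set favours deeper libraries, and PCR copies make counting error look too small.

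A minimum mean of 2 CPM left 62234 peaks (294 removed). After TMM scaling they were tested with edgeR 4.0.16 in R 4.3.3 (quasi-likelihood, two-sided), with line and treatment as terms (3 residual degrees of freedom, 62.8 prior ones) and Benjamini-Hochberg adjustment over all peaks. The line comparison also needed a 2-fold change. The difference of a drug effect between lines was tested as an interaction, in a model where the drugs add on the log2 scale, with 2 residual degrees of freedom. Ratios within a line use a prior count of 2 and have no replicate check. The lines serve as the repeat of a treatment, and p-values measure the spread between these libraries, which may be technical. Alternatives were DESeq2 1.42.0, other scalings, no filter, each library left out and other distance rules. The model was tested on simulated counts with 1 dispersion (0.017) for all peaks. It found 25% of 2-fold and 77% of 4-fold changes under the combination. Shares of counts were compared with exact permutation tests (SciPy 1.17.1).

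The members and the 7 gene lists (370 genes) were chosen with earlier results of these data known. Named peaks were drawn from 10 rises and 10 falls of lowest adjusted p that move alike in both lines, or whose lines do not overlap. They were also drawn from the strongest and farthest members, the genes and runs with most members, and up to 5 called peaks per list. Not all of them are printed in the text. Values for NFIA, RALGPS2 and gene starts in RefSeq follow their groups. RefSeq (GRCh38.p14) gave gene positions and start windows. Peak sequences were not used here.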

Additional observations from a re-analysis of the deposited data

Results flagged for a closer look

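The effect of pomalidomide differed between the lines at 2 distant peaks, near AL590874.1 (1.504 ± 0.34, edgeR adjusted p = 0.035) and RP11-2P2.1 (2.49 ± 0.52, edgeR adjusted p = 0.0265), with the more positive change in KMS11, by the test of the difference itself. The effect of GNE-781 differed at 1 distant peak, near AC093901.1 (-2.75 ± 0.54, edgeR adjusted p = 0.0304), where KMS11 fell and JJN3 rose. The fit takes GNE-781 with and without pomalidomide together, and the JJN3 library with pomalidomide alone had the lowest value there. At RP11-2P2.1 the KMS11 pomalidomide library had 144 counts and the KMS11 combination library 88, where the other 6 libraries had 11 to 26.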

How the results depend on the processing

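No called change of a named peak reversed its direction. Scaling by relative log expression, cyclic loess offsets, no filter or fits of the compared libraries alone kept the counts of called members within 1.5 times, except that GNE-781 had 0 with loess and 5 with the compared libraries alone, and that the pomalidomide effect differed between the lines at 1 member with relative log expression. With DESeq2 the called members were 6 for pomalidomide, 0 for GNE-781, 19 for the combination and 7 for the combination against GNE-781, and the called distant sums were 2 for pomalidomide and 11 for the combination. Leaving out each library in turn gave 3 to 60 members for pomalidomide, 0 to 6 for GNE-781, 18 to 157 for the combination, 1 to 53 against GNE-781, 0 to 3 against pomalidomide and 977 to 1099 between the lines. Distant sums ranged from 1 to 18 for pomalidomide, 0 to 1 for GNE-781, 8 to 65 for the combination and 502 to 545 between the lines. The cause was not tested. Of the named peaks, 1 of 21 stayed called for pomalidomide, 6 of 27 for the combination and 0 of 15 for the combination against GNE-781. For GNE-781 it was 0 of 1 and between the lines 39 of 42. These counts cover only the runs that gave a peak an outcome, and DESeq2 gave none for some. It kept 6 and lost 10 of the 21 calls for pomalidomide, and kept 15 and lost 9 of the 27 for the combination. Against GNE-781 it kept 6 and lost 4 of the 15.

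A limit of 200 kb left 939 tested members and gave 19, 0, 60, 13 and 408 calls (pomalidomide, GNE-781, combination, combination against GNE-781, lines), which are 2.02%, 0%, 6.39%, 1.38% and 43.5% of them. A gap of over 100 kb to the whole transcript left 1334 and gave 27 (2.02%) for pomalidomide, 77 (5.77%) for the combination, 23 (1.72%) against GNE-781 and 619 (46.4%) between the lines. A distance of 100 kb to RefSeq starts left 823 and gave 15 (1.82%), 53 (6.44%), 12 (1.46%) and 378 (45.9%). The share of counts differed between the lines by 0.277 percentage points with promoter peaks out of the denominator (exact permutation p = 0.0286). Leaving out libraries was not run for the line difference of a drug effect. Treatments were compared within each line, since the line is a term of the model. No block by replicate number was fitted, because each group has 1 library. Members had a median of 7 counts in the shallowest library, and the part of depth in the number of calls was not tested.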
